A study of Mus musculus with 12 samples.

Results

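The hnRNP H/F family of the mouse consists here of 4 genes, Hnrnph1, Hnrnph2, Hnrnph3 and Hnrnpf, taken by symbol from an RNA-seq table of 18208 genes and by gene identifier from a table of 147438 distinct CLIP positions, of which the family held 52. All 4 genes were present in both tables. The measurements came from striatum of wild-type C57BL/6J mice aged 50 to 100 postnatal days. These animals were bred from males heterozygous for an Hnrnph1 mutation and wild-type females; mutant animals were not analysed here. All mice received saline on 2 days, and on day 3 the groups received either saline again or methamphetamine, a psychostimulant, at 2 mg/kg. Striata were taken 30 min after that injection. Each replicate was a pool of 4 mice, 2 females and 2 males, and each treatment had 3 pools. From each pool, RNA cross-linked to hnRNP H was precipitated with an antibody to that protein and sequenced (CLIP-seq), and RNA set aside from the same pool before cross-linking was sequenced without precipitation (RNA-seq). The design therefore asks what hnRNP H was bound to and whether binding or transcript level differed after the drug; for this family it also shows hnRNP H on transcripts of its own gene and of its paralogs. Whether the antibody also recognises the other family proteins is not given in the sources used here.

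Members of this family are nuclear RNA-binding proteins that contact runs of guanine through domains called quasi-RRMs, and they raise or lower the use of nearby splice sites and polyadenylation sites. Hnrnph1 and Hnrnph2 encode the closely related proteins hnRNP H and hnRNP H', Hnrnpf encodes hnRNP F, which binds the same kind of sequence, and Hnrnph3 encodes the shorter hnRNP H3. Splicing factors of several families are known to bind their own transcripts and those of their paralogs at exons whose skipping brings in an early stop codon.

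The genes lie on GRCm38 at chr11:50376990-50386528 (Hnrnph1, plus strand), chrX:134601179-134607060 (Hnrnph2, plus strand), chr10:63014664-63024217 (Hnrnph3, minus strand) and chr6:117900324-117925622 (Hnrnpf, plus strand). Their coding sequences, aligned in pairs, were most alike between Hnrnph1 and Hnrnph2, at 85.3% identical bases over 1343 aligned bases. Hnrnph1 and Hnrnpf matched at 77.3%, Hnrnph1 and Hnrnph3 at 71.1%, and Hnrnph3 and Hnrnpf, the least alike pair, at 67.4%. Gene structure differs: the reference transcript of Hnrnph1 has 13 exons and that of Hnrnph3 has 10, while Hnrnph2 and Hnrnpf have 3 each and carry the coding sequence in the last.

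One exon is shown because a CLIP position lay at its end in 2 of the genes. It is exon 5 of Hnrnph1 (chr11:50381459-50381597, plus strand) and its counterpart, exon 3 of Hnrnph3 (chr10:63018760-63018898, minus strand), both coding exons of 139 bases and 90.6% identical. The sequences run 5′ to 3′ on the transcript strand, with runs of 3 or more guanines in capitals.
Hnrnph1 exon 5: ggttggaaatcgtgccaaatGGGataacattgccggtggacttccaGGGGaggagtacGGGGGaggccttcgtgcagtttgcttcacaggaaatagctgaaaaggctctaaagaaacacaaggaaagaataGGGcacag
Hnrnph3 exon 3: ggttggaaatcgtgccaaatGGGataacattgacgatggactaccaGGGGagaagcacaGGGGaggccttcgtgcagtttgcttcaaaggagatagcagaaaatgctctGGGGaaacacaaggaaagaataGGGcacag
The first 32 and the last 27 bases are the same in both genes, and the shared end holds a GGG close to the 5′ splice site. The length is not a multiple of 3, so skipping the exon shifts the reading frame. GENCODE M21 annotates 1 Hnrnph1 transcript that skips it, a processed transcript without a coding sequence, and 2 Hnrnph3 transcripts that do, 1 annotated as protein coding and 1 as a target of nonsense-mediated decay. The matching stretch of Hnrnph2, 88.5% identical to exon 5 of Hnrnph1, and that of Hnrnpf, 80.6% identical, lie inside an undivided coding exon.

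A CLIP position, a 100-base interval on the transcript strand in the authors' table, lay across the 5′ splice site at the end of this exon in both genes. In Hnrnph1 it held the last 7 exon bases and 93 intron bases (position Hnrnph1-3), and in Hnrnph3 the last 5 exon bases and 95 intron bases (position Hnrnph3-5). These positions held 4.03% of the CLIP reads of Hnrnph1 and 15.0% of those of Hnrnph3, so most reads of both genes lay elsewhere. Over all positions in protein-coding genes, 2.71% (3815 of 140732) lay across an annotated 5′ splice site; in this family it was 1 of 7 in Hnrnph1, 2 of 22 in Hnrnph3 (the other, Hnrnph3-1, at exon 4), 0 of 5 in Hnrnph2 and 0 of 18 in Hnrnpf. The Hnrnph1 interval is shown with the most-read position of the family, Hnrnph1-5, which lies in the intron that follows the same exon, to set a splice-site sequence with a G-run beside a highly read sequence with none. Both are on chromosome 11, plus strand, at chr11:50381591-50381690 and chr11:50382191-50382290, and the third line extends the latter by 50 bases on each side.
Hnrnph1-3: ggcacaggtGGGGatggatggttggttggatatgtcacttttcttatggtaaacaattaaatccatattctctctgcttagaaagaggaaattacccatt
Hnrnph1-5: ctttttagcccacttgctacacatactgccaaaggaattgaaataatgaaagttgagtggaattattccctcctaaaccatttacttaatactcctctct
Hnrnph1-5 with flanks: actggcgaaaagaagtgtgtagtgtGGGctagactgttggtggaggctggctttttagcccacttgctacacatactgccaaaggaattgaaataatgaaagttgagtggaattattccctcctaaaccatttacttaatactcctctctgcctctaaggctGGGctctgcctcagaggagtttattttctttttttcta
The capitals again mark guanine runs. Hnrnph1-3 has a GGGG beginning 2 bases into the intron, right after the gt of the splice site. Hnrnph1-5 has no GGG among its 100 bases and is 12.0% guanine; its flanks hold 1 GGG on each side. Only intron sequence that is part of another annotated transcript or of a RefSeq promoter window could be read, so the intron sequences of the Hnrnph3 positions are not shown.

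Each RNA-seq library held 3935160 to 5091839 reads, and the CLIP libraries ranged from 423057 reads in peaks (saline replicate 2) to 1635338 (saline replicate 3). Libraries stood apart in a way that crossed treatment: on the first principal component of the RNA-seq data, saline replicates 1 and 3 and methamphetamine replicate 2 (set A) lay opposite saline replicate 2 and methamphetamine replicates 1 and 3 (set B). No batch in the labels matches these sets. They were defined from these same RNA-seq values, so separation of genes or marker sums between them is partly built in. All 9 markers of striatal projection neurons were measured and above 0 in every library, with a summed level of 9250 to 10571 CPM in set A against 6253 to 6939 in set B. The sums for 4 astrocyte markers (360 to 474 against 514 to 627), 4 microglia markers (170 to 189 against 200 to 246) and 3 endothelial markers (42.6 to 59.6 against 64.5 to 88.2) were lower in set A. The sums for 7 markers of cortical excitatory neurons (1164 to 1397 against 1253 to 1436) overlapped. The 4 choroid plexus markers summed to 4898 CPM in methamphetamine replicate 2 and to 57.9 to 220 elsewhere.

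Total striatal RNA held all 4 transcripts at moderate levels. The levels are log2 CPM, the base-2 logarithm of reads per 1000000 after the authors' scaling. Hnrnph1 measured 5.23, 5.06 and 4.74 in the saline pools, here and below in the order of replicates 1 to 3, against 4.93, 4.92 and 4.97 in the methamphetamine pools. The methamphetamine values sat inside the saline range. The change, methamphetamine minus saline, was -0.07 ± 0.19 on the log2 scale (SE, n = 3 each, 95% interval -0.49 to 0.35; limma, adjusted p 0.9998). For the X-linked Hnrnph2 the saline levels were 5.13, 5.24 and 4.32 and the methamphetamine levels 5.04, 4.66 and 5.18. Saline replicate 3 was the lowest library, and the groups overlapped. Its change was 0.06 ± 0.27 (SE, 95% interval -0.55 to 0.67; limma, adjusted p 0.9998).

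Hnrnpf measured 5.32, 5.44 and 4.88 log2 CPM after saline and 5.52, 5.15 and 5.59 after methamphetamine. It was highest in methamphetamine replicate 3 and lowest in saline replicate 3, with overlapping groups and a log2 change of 0.21 ± 0.21 (SE, 95% interval -0.27 to 0.68; limma, adjusted p 0.9998). Hnrnph3 had 4.11, 3.96 and 4.23 after saline and 4.16, 4.37 and 4.19 after methamphetamine. These groups overlapped as well, and the log2 change was 0.14 ± 0.20 (SE, 95% interval -0.31 to 0.59; limma, adjusted p 0.9998). Thus 0 of the 4 genes passed the adjusted threshold of 0.05, beside 0 of all 18208 genes (0%). At an unadjusted limma p under 0.05 the counts were 0 of 4 and 276 of 18208 (1.52%). The latter count was 928 without saline replicate 2 and 958 without methamphetamine replicate 2. Without saline replicate 2, all saline libraries left were of set A. Without methamphetamine replicate 2, all methamphetamine libraries left were of set B. Treatment then followed the library sets more closely, and the same holds for the CLIP libraries of these pools, counted below. The cause of the higher counts was not tested. With edgeR on the reads recovered from the log2 values, 0 genes passed after adjustment and 109 had an unadjusted p under 0.05. In bulk tissue, fewer cells that express a gene and less RNA per cell cannot be told apart.

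**Figure D1:**
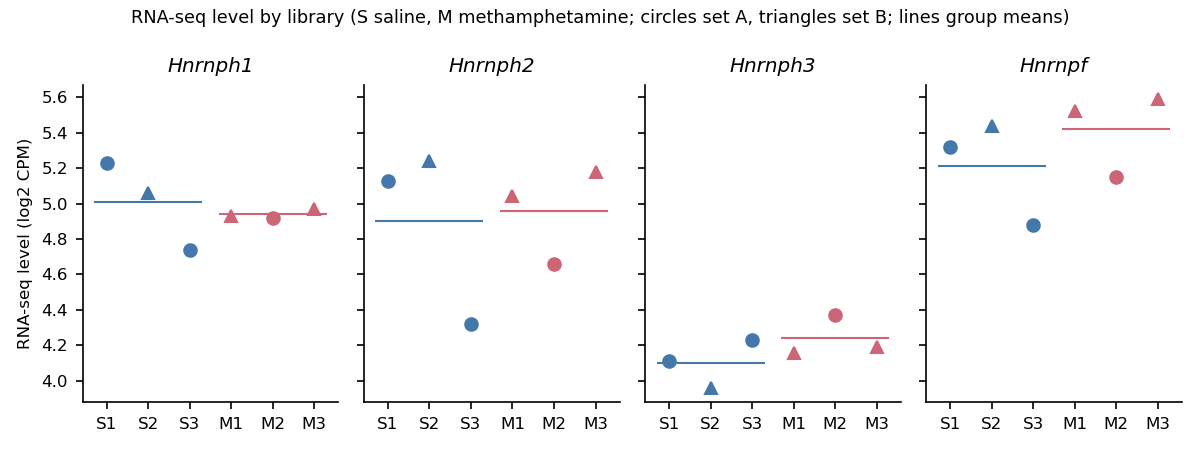
RNA-seq level of each gene (y axis, log2 CPM) in the 3 saline (S, blue) and 3 methamphetamine (M, red) libraries on the x axis, with lines at the group means and symbols for 2 sets of libraries that stand apart in the RNA-seq data. The treatments overlap in every panel, and Hnrnpf is higher in each library of set B (5.44 to 5.59) than in each of set A (4.88 to 5.32). The sets were defined from these same RNA-seq data, so such separation is partly built in.

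In set A Hnrnpf measured 4.88 to 5.32 log2 CPM, against 5.44 to 5.59 in set B. Hnrnpf was among the genes that defined the sets, and how many genes separate in this way was not counted. Hnrnph1 (4.74 to 5.23 against 4.93 to 5.06), Hnrnph2 (4.32 to 5.13 against 5.04 to 5.24) and Hnrnph3 (4.11 to 4.37 against 3.96 to 4.19) overlapped between sets. Within set A, with 1 methamphetamine library, the treatment difference was -0.06 for Hnrnph1, -0.07 for Hnrnph2, 0.20 for Hnrnph3 and 0.05 for Hnrnpf; within set B, with 1 saline library, it was -0.11, -0.14, 0.22 and 0.12. Hnrnph2 thus differed in sign from its pooled value in both sets. The part of tissue composition in the Hnrnpf difference between sets was not tested.

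Levels were compared between genes only per kilobase of merged exons. On that scale Hnrnpf measured 3.71 ± 0.27 log2 CPM per kb (SD, n = 6), Hnrnph2 2.80 ± 0.36, Hnrnph3 2.51 ± 0.14 and Hnrnph1 2.43 ± 0.16. Hnrnpf lay above Hnrnph2 in 6 of 6 libraries, by 0.91 ± 0.16 (SD; exact sign-flip permutation test, two-sided, p = 0.0312, the smallest that 6 libraries allow, and 0.0938 after Benjamini-Hochberg adjustment over 3 neighbouring pairs). Hnrnph2 lay above Hnrnph3 in 4 of 6 libraries (difference 0.29 ± 0.46, exact permutation p = 0.219, adjusted 0.328). Hnrnph3 lay above Hnrnph1 in 4 of 6 (0.09 ± 0.26, exact permutation p = 0.406, adjusted 0.406). No neighbouring pair passed the adjusted threshold, but 1 pair alone could not, since its smallest possible p of 0.0312 adjusts to 0.0938. The pairs were also taken from the order of these same levels. This test therefore cannot decide whether Hnrnpf and Hnrnph2 differed. The order depends on the length used, since the 5842 bases of merged Hnrnph1 exons include introns kept in non-coding transcripts. With the median length of full coding transcripts, a choice made after seeing the data, the levels were 4.13 for Hnrnpf, 3.82 for Hnrnph1, 3.69 for Hnrnph2 and 3.04 for Hnrnph3, so Hnrnph1 moved from last to the second place.

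Sequence shared with other genes limits these levels, because how reads with several matches were treated is not given in the sources used here. Of the 100-base stretches in the reference transcript of Hnrnpf, 43.5% also occur in another annotated gene, most often the predicted gene Gm6430. For Hnrnph2 the share was 9.03%, all with Gm8775. For Hnrnph1 and Hnrnph3 it was 0%. Between the 4 members themselves no stretch of 70 bases was shared, and of 30-base stretches, the shortest CLIP fragments, 0.906% of those in Hnrnph1, 0.595% in Hnrnph3, 0.177% in Hnrnph2 and 0% in Hnrnpf occur in another member. Hnrnph3 overlaps Rufy2 on the opposite strand, and Hnrnpf overlaps 4933440N22Rik and Gm43863. Whether RNA-seq counting used strand is not given either.

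The genes whose RNA-seq profile was most like that of each member are named by Pearson's r over the 6 libraries among 7849 genes with a mean log2 CPM above 4. For Hnrnpf they were Spag7 (0.998), Prpf18, a pre-mRNA splicing factor (0.997), and Psmc3, a proteasome subunit (0.995). For Hnrnph2 they were Chmp1a (0.994), Fem1b (0.987) and Coq10a (0.986), and for Hnrnph1 Tomm40l (0.970), the thyroid hormone receptor gene Thrb (0.969) and Clmp (0.966). For Hnrnph3 they were Syne2 (0.986), Zdhhc1 (0.971) and Slc20a2 (0.971). Hnrnph2 and Hnrnpf had an r of 0.920 with each other, Hnrnph1 had 0.779 with Hnrnph2 and 0.531 with Hnrnpf, and Hnrnph3 had -0.508, -0.665 and -0.450 with Hnrnph1, Hnrnph2 and Hnrnpf. The profiles share the 2 library sets, so these values describe the 6 libraries only.

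CLIP reads were spread unevenly over the family. Over the 6 CLIP libraries, Hnrnph1 had 919 reads in 7 positions, Hnrnph3 731 reads in 22, Hnrnpf 220 reads in 18 and Hnrnph2 84 reads in 5, against a median of 58.0 reads over 16910 genes with positions. Hnrnph1 and Hnrnph3 were thus above 92.8% and 91.0% of these genes. Hnrnpf was above 75.6% and Hnrnph2 above 57.7%.

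Set against transcript level, Hnrnph3 and Hnrnph1 again lay above the other two. The log2 ratio of CLIP CPM (reads per 1000000 peak reads) to RNA-seq CPM was 2.81 ± 0.17 for Hnrnph3 (SD, n = 6) and 2.26 ± 0.44 for Hnrnph1, with single libraries from 2.59 to 2.99 and from 1.56 to 2.73. For Hnrnpf it was 0.01 ± 0.25, with single libraries from -0.21 to 0.43. The median over 7442 genes with a mean RNA-seq log2 CPM above 4 was -1.60 (quartiles -3.02 and -0.21). Hnrnph3, near that cut with group means of 4.10 (saline) and 4.24 (methamphetamine), Hnrnph1 and Hnrnpf lay above 97.3%, 95.8% and 78.3% of these genes. Hnrnph2 was at -1.75 ± 1.89, above 47.4% of them. One of its libraries, saline replicate 2, had 0 reads and a value set by the offset added to each count, and without that library the ratio was -1.10 ± 1.13 (SD, n = 5). All 6 libraries of Hnrnph3 were above the highest library of Hnrnpf, and all 6 of Hnrnph1 were too. The Hnrnph1 ratio rests mostly on 1 position, described below, with 88.7% of its CLIP reads, and was not computed without that position. CLIP reads lay largely in introns and RNA-seq reads were counted per gene, so the ratio is not a bound share.

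**Figure D2:**
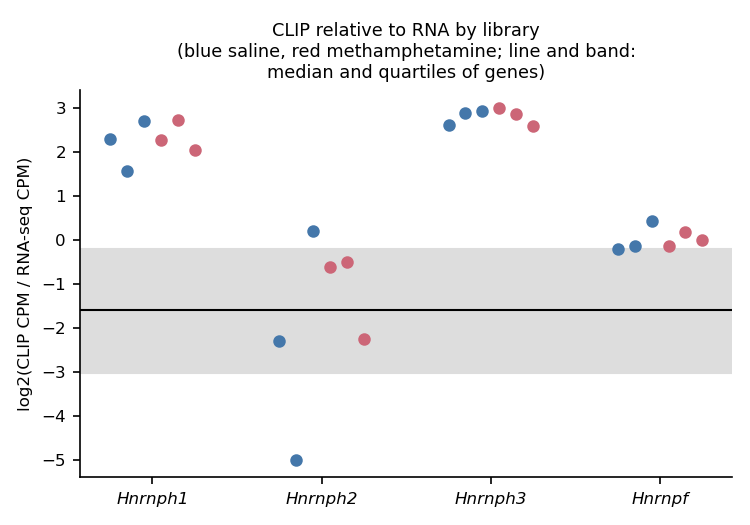
Log2 ratio of CLIP CPM to RNA-seq CPM for each gene (y axis) in the 6 pools, blue for saline and red for methamphetamine. A line and a grey band give the median (-1.60) and quartiles of 7442 genes with a mean RNA-seq log2 CPM above 4. Hnrnph1 and Hnrnph3 lie above the band in all 6 pools, with 88.7% of the Hnrnph1 CLIP reads at 1 position, and Hnrnph2 spans the widest range.

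Most of the Hnrnph1 signal came from a single interval. Hnrnph1-5 lay in the intron between exons 5 and 6, 593 bases after exon 5 and 246 before exon 6. The same stretch is exon in Hnrnph1-204, an annotated non-coding transcript of the gene. The position had 179, 35 and 248 reads in the saline pools against 110, 181 and 62 in the methamphetamine pools. These made up 815 of the 919 reads of the gene, 88.7% (Wilson 95% interval 86.5 to 90.6, counting error only). By library, the share was 92.7%, 85.4% and 88.3% after saline against 83.3%, 92.3% and 81.6% after methamphetamine, and it was higher in each library of set A than in each of set B. In how many other genes this share separates by set was not counted. Among 5431 genes with at least 5 positions and 50 reads, the most-read position held a median of 30.9% of the reads, and 103 genes, Hnrnph1 among them, had a share at least as high as that of Hnrnph1. The other members were less concentrated, with 35.7% of the reads at the most-read position in Hnrnph2, 23.0% in Hnrnph3 and 20.5% in Hnrnpf. No 20-base stretch of Hnrnph1-5, whose sequence is printed above, occurs in a transcript of another annotated gene or in another gene's promoter window.

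The same position was in neither of the authors' treatment lists of called peaks, although it had more reads than 99.38% of all positions. It is in the authors' merged list, where the authors' deposited table gives it a signal value of 4.71, on a scale that no source explains. Of 911 positions with at least 815 reads, 764 (83.9%) were in neither treatment list, against 90.6% of all positions. Its CPM was 170, 82.7 and 152 after saline and 121, 185 and 104 after methamphetamine, so the groups overlapped and the log2 change was 0.15 ± 0.36 (SE, 95% interval -0.69 to 0.98; edgeR, adjusted p 0.996).

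The other Hnrnph1 positions were thin. Hnrnph1-3, at the 5′ splice site of exon 5, had 4, 2 and 14 reads in the saline pools, against 9, 5 and 3 in the methamphetamine pools, with reads in all 6 libraries. Hnrnph1-7 (chr11:50384591-50384690), across the start of exon 12, had 1, 2 and 14 reads in the saline pools, against 2, 7 and 4 in the methamphetamine pools. The groups overlapped at both, and neither passed the count filter for testing. The remaining 4 positions, all in introns, had 6 to 11 reads each.

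Hnrnph3 reads formed 2 groups, one at the start of its first intron and one at the 139-base exon. In the first intron, Hnrnph3-20 (chr10:63023165-63023264, 455 bases after exon 1) had 18, 8 and 74 reads in the saline pools, against 25, 34 and 9 in the methamphetamine pools. It was in both treatment lists, with signal values of 2.75 (methamphetamine) and 2.64 (saline) in the authors' deposited table. Saline replicate 3, the deepest library, had the most reads, also as CPM (45.3 CPM against 15.1 to 34.7 in the other 5).

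Hnrnph3-21 (chr10:63023365-63023464), in the methamphetamine list only with a signal value of 1.19 in the authors' deposited table, had 16, 2 and 44 reads in the saline pools, against 3, 24 and 22 in the methamphetamine pools. As CPM, the saline values were 15.2, 4.73 and 26.9 and the methamphetamine values 3.30, 24.5 and 37.0, which overlapped, and the log2 change was 0.46 ± 0.78 (SE, 95% interval -1.35 to 2.28; edgeR, adjusted p 0.996). That interval is too wide to show whether the treatments differed at this position. Hnrnph3-22 (chr10:63023565-63023664), 55 bases after exon 1, had nearly as many reads, 105 against 111, and was in neither list.

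At the 139-base exon, Hnrnph3-5 (chr10:63018665-63018764), the splice-site position, had 18, 13 and 28 reads in the saline pools, against 18, 26 and 7 in the methamphetamine pools. It was in both lists, with signal values of 1.45 (methamphetamine) and 1.41 (saline) in the authors' deposited table. Its CPM was 17.1, 30.7 and 17.1 against 19.8, 26.5 and 11.8, with overlapping groups and a log2 change of -0.03 ± 0.54 (SE; edgeR, adjusted p 0.996). The next interval into the intron, Hnrnph3-4 (chr10:63018565-63018664), had 10, 5 and 11 reads in the saline pools, against 10, 21 and 2 in the methamphetamine pools, again in both lists (2.01 and 1.2 in the authors' deposited table). Over the 6 libraries Hnrnph3-5 had 110 reads and Hnrnph3-4 had 59, where the Hnrnph1 counterpart Hnrnph1-3 had 37.

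By region, 19 of the 22 Hnrnph3 positions were intronic and held 79.9% of its reads, and 3 lay across a coding exon boundary with 20.1%. Over all positions in protein-coding genes, introns held 82.0% of positions and 75.4% of reads, and coding exon boundaries (7043 positions) held 7.85% of reads. Hnrnph1 had 5 intronic positions (92.7% of its reads) and 2 at coding exon boundaries (7.29%).

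Hnrnph2 was the member with no intronic position. Of its 5 positions, all in the last exon, 3 lay within coding sequence with 66.7% of the reads, 1 spanned the stop codon with 26.2%, and 1 was untranslated with 7.14%, whereas coding exons held 1.93% of positions and 3.84% of reads over all protein-coding genes. The most-read, Hnrnph2-3, had 4, 0 and 15 reads in the saline pools, against 3, 6 and 2 in the methamphetamine pools. Hnrnph2-4, which spans the stop codon, had 2, 0 and 11 against 1, 6 and 2, and Hnrnph2-2 had 1, 0 and 3 against 9, 2 and 0. Saline replicate 2, the shallowest library, had 0 reads at all 5, which allows up to 7.09 CPM (3 reads), and saline replicate 3 had the most at Hnrnph2-1, Hnrnph2-3 and Hnrnph2-4. The 3 coding positions are printed because all of them hold guanine runs, in capitals: chrX:134605580-134605679, chrX:134605780-134605879 and chrX:134606080-134606179, plus strand.
Hnrnph2-1: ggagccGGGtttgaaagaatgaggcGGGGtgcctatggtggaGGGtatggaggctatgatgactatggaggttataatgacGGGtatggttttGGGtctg
Hnrnph2-2: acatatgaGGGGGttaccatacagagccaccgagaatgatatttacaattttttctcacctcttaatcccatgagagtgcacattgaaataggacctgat
Hnrnph2-3: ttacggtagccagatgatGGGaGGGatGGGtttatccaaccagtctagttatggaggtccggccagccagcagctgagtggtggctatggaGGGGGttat
Hnrnph2-1 and Hnrnph2-3 have 5 and 4 such runs and 43.0% and 38.0% guanine, against a mean of 26.6% over 24074 positions that lie within an annotated exon. Hnrnph2-2 has 1 run and 19% guanine, below that mean. All 3 share 20-base stretches with Gm8775 and Gm18896, and Hnrnph2-3 also with Hnrnph1, so their reads cannot be assigned to Hnrnph2 with certainty.

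Runs of guanine were counted on the transcript strand in positions that lie within 1 annotated exon, non-coding transcripts included. The motif was GGG, in any overlap. In Hnrnph2 4 of 5 positions (80.0%, Wilson 95% interval 37.6 to 96.4) held it and in Hnrnph1 2 of 5 (40.0%, 11.8 to 76.9). In Hnrnph3 it was 0 of 1, in Hnrnpf no position could be read in this way, and over all genes the share was 70.9% (17079 of 24074). These intervals are wide and include the share of all genes. With GGGG the shares were 60.0% in Hnrnph2, 20.0% in Hnrnph1 and 36.5% over all genes.

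All 18 Hnrnpf positions lay in introns, upstream of the exon that carries the coding sequence. Hnrnpf-12 (chr6:117919625-117919724, in the intron before the coding exon) was the most read, with 11, 2 and 13 reads in the saline pools, against 7, 4 and 8 in the methamphetamine pools, and was in both lists (signal values of 1.78 for methamphetamine and 1.85 for saline in the authors' deposited table). Hnrnpf-3 (chr6:117907525-117907624) was in the methamphetamine list only (1.6 in the authors' deposited table), with 4, 0 and 12 reads in the saline pools, against 0, 11 and 11 in the methamphetamine pools. Hnrnpf-15 (chr6:117920625-117920724) was in the saline list only (1.39 in the authors' deposited table), with 4, 9 and 2 reads in the saline pools, against 1, 3 and 0 in the methamphetamine pools. At all 3 the groups overlapped, and none of the 18 passed the count filter. A RefSeq promoter window of Hnrnpf on GRCm38.p6 covers the last 71 bases of Hnrnpf-3 (chr6:117907554-117907624, plus strand) and all of the next position, Hnrnpf-4 (chr6:117907625-117907724). They are shown for the guanine runs, in capitals, at a listed position of this gene. The other listed positions, Hnrnpf-12 and Hnrnpf-15, could not be read. The stretches shown are 76.1% (Hnrnpf-3) and 69.0% (Hnrnpf-4) G or C, and guanine runs over promoter windows in general were not counted.
Hnrnpf-3, last 71 bases: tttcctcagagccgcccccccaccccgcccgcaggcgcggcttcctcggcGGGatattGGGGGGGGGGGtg
Hnrnpf-4: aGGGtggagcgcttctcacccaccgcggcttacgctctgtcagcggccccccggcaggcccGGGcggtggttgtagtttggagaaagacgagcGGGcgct
The longest run in the listed interval is 11 guanines. Hnrnpf-4 had 9 reads, was in neither treatment list and has 3 runs of 3. On the other strand the same stretch belongs to 4933440N22Rik.

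**Figure D3:**
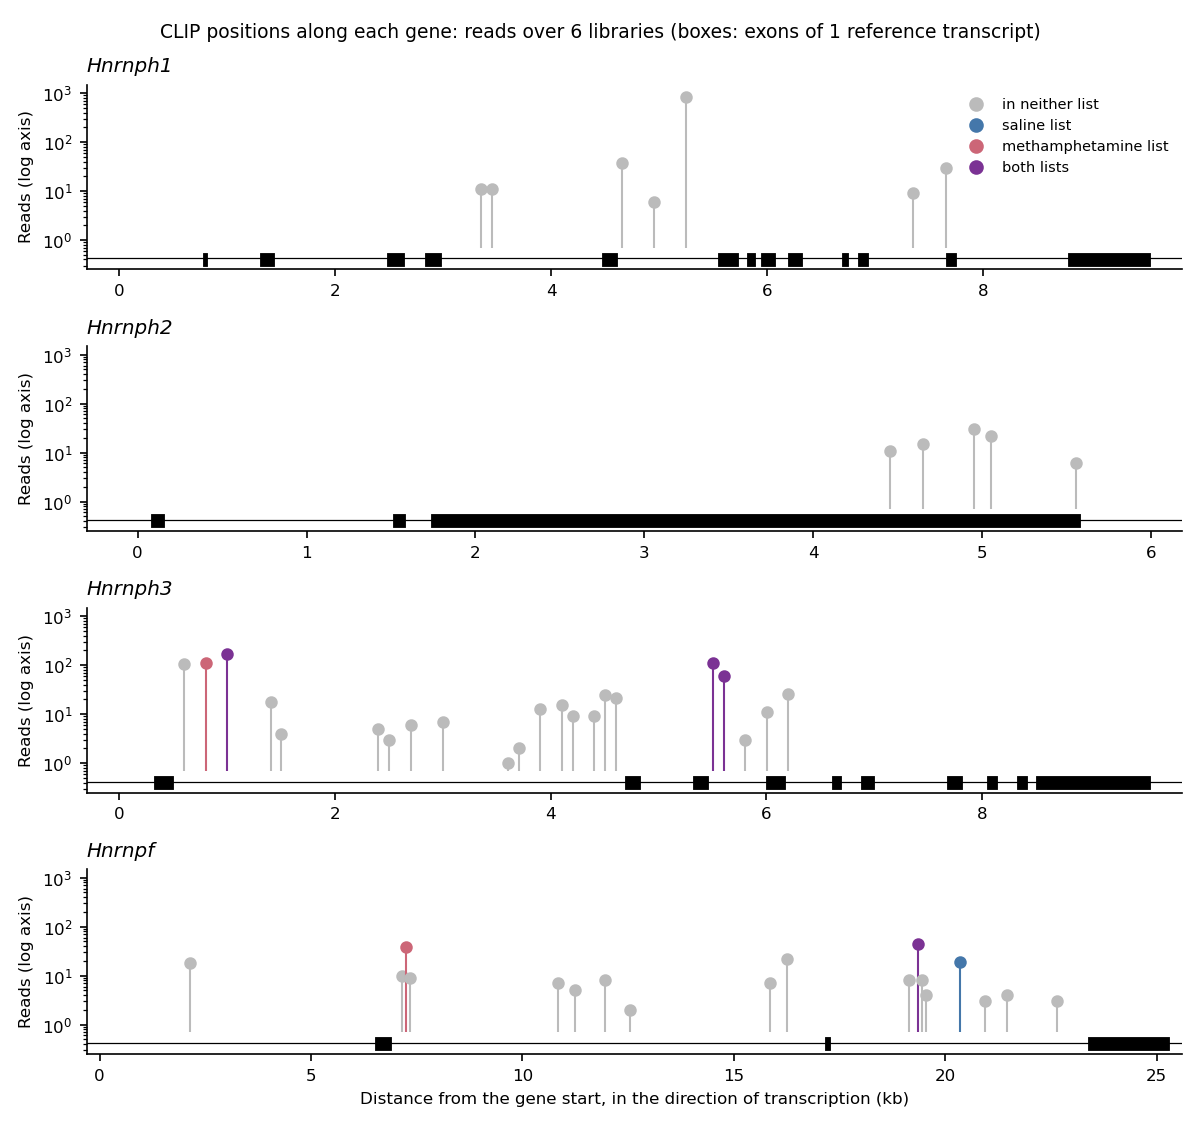
CLIP reads summed over 6 libraries (y axis, log scale) at each position of the 4 genes, against the distance of the position's centre from the gene start in kb, coloured by the authors' treatment lists, with black boxes for the exons of 1 reference transcript. Hnrnph1 has 1 dominant unlisted position (815 reads) between exons 5 and 6, Hnrnph3 has listed positions in intron 1 and at exon 3, Hnrnph2 has only exonic positions, and those of Hnrnpf lie before its last exon.

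Summed per gene, CLIP reads overlapped between treatments in Hnrnph1, Hnrnph2 and Hnrnph3. Hnrnph1 had 183, 96.9 and 172 CPM after saline and 145, 200 and 128 after methamphetamine. The 3 libraries of set A (172 to 200) were above the 3 of set B (96.9 to 145), and the treatments overlapped. How many of all genes separate between the sets in CLIP was not counted. The log2 change was 0.05 ± 0.37 (SE, n = 3 each, 95% interval -0.78 to 0.88; edgeR, adjusted p 0.987). Without its dominant position, an alternative added after seeing the data and fitted without a count filter, the change was 0.30 (edgeR, adjusted p 0.952), from 104 reads in all.

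Hnrnph3 had 104, 113 and 142 CPM after saline and 142, 149 and 109 after methamphetamine. Its groups overlapped, with a log2 change of 0.14 ± 0.34 (SE, 95% interval -0.62 to 0.90; edgeR, adjusted p 0.948). For Hnrnph2 the CPM was 6.65, 0 and 22.6 after saline and 20.9, 17.3 and 6.72 after methamphetamine, with a log2 change of 0.49 ± 0.85 (SE, 95% interval -1.43 to 2.40; edgeR, adjusted p 0.927). With 84 reads in all, the interval of Hnrnph2 holds changes of more than 1 in either direction.

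Hnrnpf had 34.2, 37.8 and 39.1 CPM after saline and 40.7, 39.8 and 47.0 after methamphetamine, and these groups did not overlap. How many of all genes tested also separate in this way was not counted. The log2 change was 0.19 ± 0.38 (SE, 95% interval -0.68 to 1.05; edgeR, adjusted p 0.941), and the nearest libraries, methamphetamine replicate 2 and saline replicate 3, had 39.8 and 39.1 CPM. In the fit over all genes, 0 of the 4 members passed the adjusted threshold, beside 0 of 8177 genes (0%), and at an unadjusted p under 0.05 it was 0 of 4 beside 429 (5.25%). DESeq2 also called 0 genes and had 396 at an unadjusted p under 0.05. The edgeR count of 429 was 678 without saline replicate 2, 908 without methamphetamine replicate 2, 217 without methamphetamine replicate 1 and 244 without methamphetamine replicate 3. At single positions, 6 of the 52 passed the count filter, Hnrnph1-5 and 5 of Hnrnph3, and 0 of these were called, beside 0 of 10358 positions (0%) after adjustment and 369 (3.56%) before. DESeq2 called 0 positions and had 345 at an unadjusted p under 0.05, and the edgeR count of 369 was 946 without saline replicate 2 and 1092 without methamphetamine replicate 2. The narrowest interval of a member in the CLIP sums, that of Hnrnph3, ran from -0.62 to 0.90, so these counts of 0 do not show that binding was the same after both treatments.

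**Figure D4:**
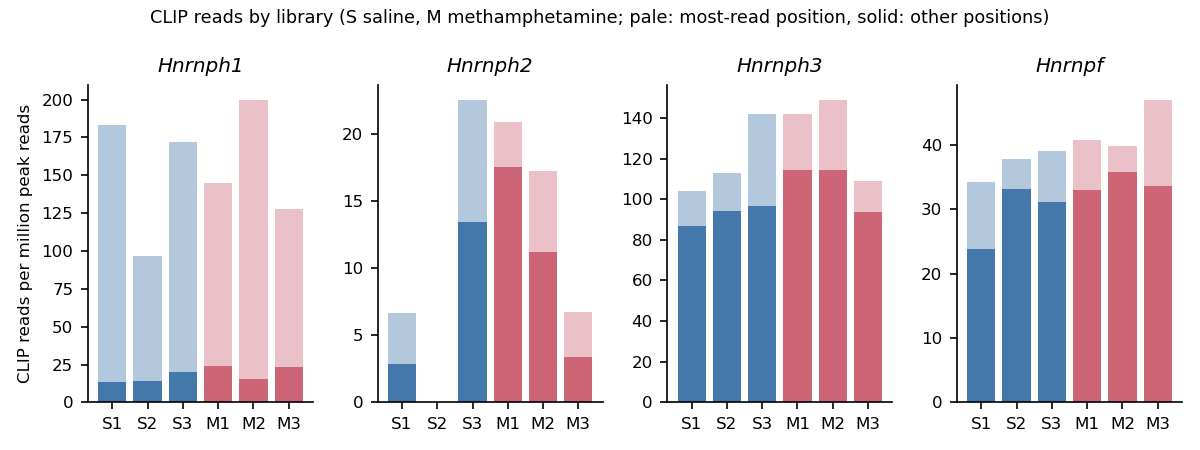
CLIP reads per 1000000 peak reads (y axis, from 0, a separate scale for each gene) in the 3 saline (S, blue) and 3 methamphetamine (M, red) libraries, with the most-read position of each gene in the pale part of a bar and all other positions in the solid part. The pale part makes up most of each Hnrnph1 bar, S2 has no Hnrnph2 reads, and the M bars of Hnrnpf (39.8 to 47.0) lie above its S bars (34.2 to 39.1). How many other genes separate in this way was not counted.

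Binding relative to transcript level was tested as the interaction of assay and treatment in 1 edgeR fit over both kinds of library. This fit treated the CLIP and RNA-seq libraries of a pool as independent. It also used 1 estimate of spread per gene, though the biological coefficient of variation was 49.3% in CLIP and 24.8% in RNA-seq, so its intervals are approximate. With the pool as a block the changes were 0.06 (Hnrnph1), 0.54 (Hnrnph2), -0.08 (Hnrnph3) and -0.10 (Hnrnpf). The change in CLIP beyond that in RNA-seq was 0.07 ± 0.40 on the log2 scale for Hnrnph1 (SE; edgeR, adjusted p 0.992), 0.32 ± 0.82 for Hnrnph2 (adjusted p 0.973), -0.08 ± 0.36 for Hnrnph3 (adjusted p 0.987) and -0.08 ± 0.41 for Hnrnpf (adjusted p 0.987). Of the 4 members 0 passed, beside 0 of 6477 genes (0%), with 0 of 4 and 355 genes (5.48%) at an unadjusted p under 0.05. That count was 675 without saline replicate 2, 906 without methamphetamine replicate 2 and 227 without methamphetamine replicate 1. The intervals ran from -0.80 to 0.93 for Hnrnph1, -1.45 to 2.08 for Hnrnph2, -0.85 to 0.70 for Hnrnph3 and -0.95 to 0.79 for Hnrnpf.

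**Figure D5:**
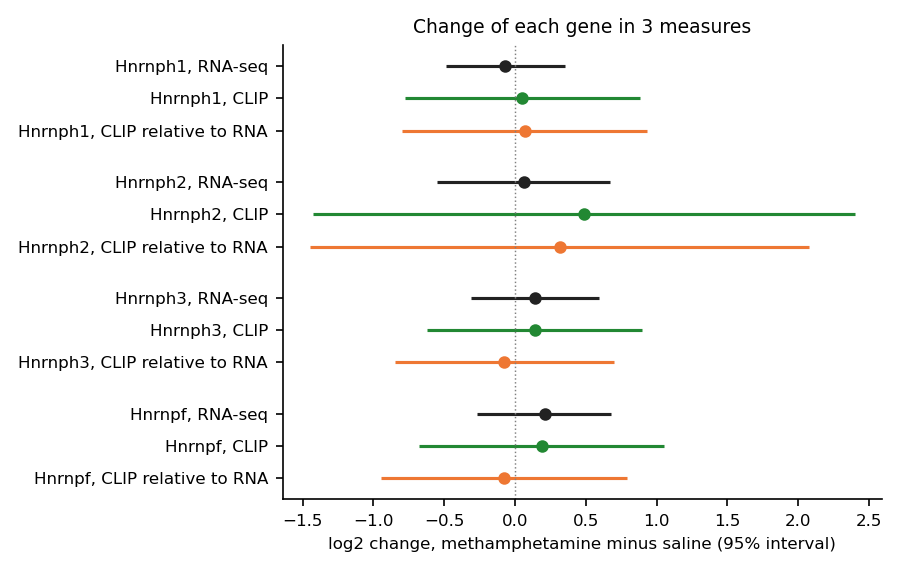
Log2 change, methamphetamine minus saline (x axis), of each gene in RNA-seq (black, limma), CLIP reads per gene (green, edgeR) and CLIP relative to RNA-seq (orange, edgeR), as points with 95% intervals. All 12 intervals include 0, and those of Hnrnph2 in CLIP are the widest (-1.43 to 2.40).

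Other genes of the heterogeneous nuclear ribonucleoprotein class, a list of 25, gave a reference for the family. In RNA-seq, 0 of 25 passed the adjusted threshold with limma and 0 had an unadjusted p under 0.05, 13 had a positive change, and the median change was 0.03 on the log2 scale (range -0.39 to 0.30), beside 0.0020 over all genes and 0.10 over the 4 members. The smallest unadjusted p belonged to Syncrip, an mRNA-binding protein of neuronal granules (-0.39 ± 0.25, SE), Hnrnpk, which binds C-rich RNA (-0.20 ± 0.17), and Hnrnpa1, a splicing repressor (0.18 ± 0.19), each with a limma adjusted p of 0.9998. In the CLIP sums 0 of 21 tested passed and 0 had an unadjusted p under 0.05, 15 were higher, and the median change was 0.30 beside 0.038 over all genes and 0.16 over the members. Over all genes, 1.52% in RNA-seq (limma) and 5.25% in the CLIP sums (edgeR) had an unadjusted p under 0.05. The share of all genes with a positive change was not counted. Raly (1.02 ± 0.63, SE), Hnrnpl (0.49 ± 0.37) and Hnrnpa0 (0.75 ± 0.58) ranked first in the CLIP sums, each with an edgeR adjusted p of 0.883. Their log2 ratio of CLIP to RNA-seq had a median of -1.05 over 24 genes, where Hnrnph1, with most of its CLIP reads at 1 position, had 2.26 and Hnrnph3 had 2.81. Syncrip (3.31) and Hnrnpa1 (2.96) were higher than either, so a high ratio was not particular to the H/F genes.

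Other transcripts with documented splicing control by hnRNP H or F were set beside the family: the kinase gene Src, the apoptosis regulator Bcl2l1, the microtubule protein gene Mapt, the opioid receptor gene Oprm1 and Nf1. With limma on RNA-seq and edgeR on the CLIP sums, 0 of these 5 passed the adjusted threshold or had an unadjusted p under 0.05. The RNA-seq log2 changes were 0.01 (Src), -0.18 (Bcl2l1), 0.10 (Mapt), 0.12 (Oprm1) and 0.08 (Nf1). Bcl2l1 had the smallest unadjusted p in CLIP, with 22.8, 66.2 and 33.0 CPM in the saline pools, against 170, 59.2 and 48.7 in the methamphetamine pools. Its groups overlapped, and the log2 change was 1.21 ± 0.63 (SE, 95% interval -0.22 to 2.65; edgeR, adjusted p 0.883). Mapt had 2241 CLIP reads and a log2 ratio of CLIP to RNA-seq of 0.23, and Oprm1 had 60 reads and 0.43. The RNA-seq levels of Oprm1 (1.74 to 3.83 log2 CPM) lay below the cut of 4 used for the 7442 genes. The other 3 genes had ratios of 0.09 (Src), -0.68 (Bcl2l1) and -0.99 (Nf1), so all 5 lay below Hnrnph1 (2.26, mostly from 1 position) and Hnrnph3 (2.81).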

How the data were processed

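The members and gene lists were chosen with earlier results of these data known. Per the submitters' processing notes the tools were Trimmomatic, UMI-tools, STAR, bedtools, Subread, featureCounts, limma and edgeR on mm10 (GRCm38); their roles and the peak caller are not given in the sources used here. For RNA-seq the authors deposited log2 CPM, made with voom per the labels. With an offset of 0.5, 100% of them inverted to whole reads (tolerance 0.05), 3935160 to 5091839 per library. The deposited CLIP table holds whole-number counts per position, 423057 to 1635338 per library, and each distinct position was used once. The deposited peak lists, 1 per treatment, give a signal value, treated as a score, and a q-value.

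RNA-seq was tested with limma 3.58.1 (eBayes with trend), and CLIP counts per position and per gene by the quasi-likelihood test of edgeR 4.0.16 after TMM scaling and filterByExpr (R 4.3.3), over all features with Benjamini-Hochberg adjustment at 0.05. The interaction fit used CLIP sums and recovered reads. DESeq2 1.42.0, other scalings and filters, the replicate block, the library set and each left-out replicate were alternatives. The fits were tested on simulated data. Levels per length used an exact paired permutation test in Python 3.11.15. Sequences came from GENCODE M21 transcripts and RefSeq promoter windows (GRCm38.p6), where all 4 members had entries. Coding sequences were aligned with biopython 1.88. Named were all members, for each the 3 most correlated genes, the 3 highest CLIP positions and all listed ones, and 3 genes per assay from the other hnRNPs by unadjusted p. Hnrnph2-1, Hnrnph3-1, Hnrnph3-22 and Hnrnpf-4 were named after their values were seen. Wilson intervals and floors cover counting error only, while limma and edgeR intervals include the spread between pools. Pools are separate animals, so p-values measure the spread between pools. One gene of the fixed lists is not reported here.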

Additional observations from a re-analysis of the deposited data

How the results depend on the processing

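Of 129 refits of the 12 member changes, 0 passed an adjusted p of 0.05, and 16 changed sign, all of values whose interval includes 0. In RNA-seq, Hnrnph1 was 0.02 when scaled to total reads and 0.04 without saline replicate 1, and Hnrnph2 was -0.10 with the library set as a covariate, -0.23 without saline replicate 3 and -0.05 without methamphetamine replicate 3. In CLIP, Hnrnph1 was -0.02 without a count filter, -0.18 without saline replicate 2 and -0.23 without methamphetamine replicate 2, and Hnrnph3 was -0.0089 without saline replicate 1 and -0.02 without methamphetamine replicate 2. In CLIP relative to RNA, Hnrnph1 was -0.15 without saline replicate 2 and -0.20 without methamphetamine replicate 2, Hnrnph2 -0.07 without saline replicate 1 and -0.21 without saline replicate 2, and Hnrnpf 0.05 without saline replicate 3 and 0.06 without methamphetamine replicate 1. The causes were not tested. Over the fits that each left out 1 replicate, RNA-seq ran from -0.20 to 0.04 for Hnrnph1, -0.23 to 0.23 for Hnrnph2, 0.07 to 0.21 for Hnrnph3 and 0.04 to 0.34 for Hnrnpf; CLIP from -0.23 to 0.17 for Hnrnph1, 0.03 to 1.82 for Hnrnph2, -0.02 to 0.22 for Hnrnph3 and 0.05 to 0.21 for Hnrnpf; and CLIP relative to RNA from -0.20 to 0.23 for Hnrnph1, -0.21 to 1.89 for Hnrnph2, -0.21 to -0.01 for Hnrnph3 and -0.22 to 0.06 for Hnrnpf. With the library set as a covariate, Hnrnpf in RNA-seq was 0.08.

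Adjusted counts stayed at 0 in each alternative except CLIP positions without a count filter, where 414 of 140449 passed. Per length, Hnrnph2 minus Hnrnph3 was -0.09 with the longest transcript. Full coding transcripts were a length chosen after seeing the data. With them Hnrnph3 minus Hnrnph1 was -0.78 (exact permutation, adjusted p 0.0469) and Hnrnpf minus Hnrnph2 0.45 (exact permutation, adjusted p 0.0469). Hnrnph2 minus Hnrnph3 was 0.65 (exact permutation, adjusted p 0.0625). The pairs were kept from the merged-exon order. Another length shifts a pair's difference equally in every library, so these p-values follow the length chosen and do not decide the order. The GGG share of Hnrnph2 was 100% in its 4 positions with at least 10 reads (Wilson interval 51.0 to 100). Over all genes the share at the same cut was 77.1% (8852 of 11484), which that interval includes. The replicate block changed no call: it left 144 RNA-seq genes, 109 CLIP positions and 184 CLIP genes at an unadjusted p under 0.05, and a block for the shared pool of both assays left 178 in the interaction. Replicate numbers name different mice, and same-numbered libraries had deviations correlated at -0.35, -0.82 and -0.49 in RNA-seq and -0.25, -0.42 and -0.04 in CLIP, so the numbers were not taken as pairs. Depth limits Hnrnph2, with 84 CLIP reads, and Hnrnpf positions, none of which could be tested, and 3 pools a group leave wide intervals for the CLIP change of every member.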
